A study of Mus musculus with 6 samples.

Results

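The 10 genes described here are those that give a T cell its antigen receptor complex and the first steps of its signal: *Cd3d*, *Cd3e*, *Cd3g* and *Cd247* for the CD3 chains, *Cd4*, *Cd8a* and *Cd8b1* for the coreceptors, and *Lck*, *Zap70* and *Lat* for the proximal kinases and the adaptor. They were taken by symbol from a list of CD3, coreceptor and proximal signaling genes, a rule that does not use measured values, and all 10 were found among the 20076 genes of the deposited table and passed the filter for low values. Bulk RNA was sequenced from the primary ovarian tumors of 6 mice, 3 wild-type (WT) and 3 with a knockout of *Tgm2*, 1 library for each tumor. Mice of both genotypes received the same cells of the mouse ovarian cancer line ID8 *Trp53*-/- *Brca1*-/-, which lacks both of these tumor suppressors, under the bursa of both ovaries, and the tumors were collected 6 weeks later. The cancer cells carry an intact *Tgm2* gene, so the knockout is confined to the host: its stroma, its vessels and its immune cells. All mice were used at ages of 6 to 10 weeks. The WT mice were C57BL/6, and the sources used here do not state the background of the knockout strain separately. The knockout is carried by the whole animal rather than by 1 host cell type, and a bulk tumor holds all cell types at once.

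A T cell recognizes antigen through the T cell receptor (TCR), a pair of variable chains that cannot signal on their own. They are held in the membrane by the CD3 chains, whose tails carry tyrosines that Lck phosphorylates once the coreceptor, CD4 or CD8, has brought Lck to the receptor. Zap70 docks on those tyrosines, is activated, and phosphorylates Lat, a membrane adaptor on which the machinery for calcium, Ras and NF-kB signaling is assembled. In tumors, CD8+ T cells are known as the main killers of antigen-bearing cancer cells, and CD4+ T cells include both helper cells and regulatory cells. Several of these genes are also used outside T cells: NK cells make *Cd247*, *Lck*, *Zap70* and *Lat*, mast cells and platelets make *Lat*, and some mouse dendritic cells make *Cd4* or *Cd8a*.

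Values are normalized counts, the estimated reads of a gene after correction for the depth of the library, and 1 read was worth between 0.939 and 1.09 normalized counts in the 6 tumors. *Tgm2* checks the genotype labels. Its values were 14978, 12155 and 13180 in WT tumors 1, 2 and 3 and 5853, 6071 and 8157 in knockout tumors, so the groups did not overlap. The labels call the cell type cancer cells, and the epithelial and mesothelial markers of the line were abundant throughout: *Krt8*, a keratin, lay between 10373 and 21948, and *Wt1* between 13131 and 20641. Lymphocyte genes were nevertheless present in every tumor, since none of the 10 genes was at 0 in any library and the lowest value was 26.4, for *Cd8b1* in WT tumor 3. Their sum was 1746, 1220 and 1186 normalized counts in WT tumors 1, 2 and 3 and 1883, 2130 and 3375 in knockout tumors. In such bulk tissue, more T cells and more RNA per T cell cannot be told apart.

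The CD3 genes lie together on chromosome 9 (positions from GENCODE M21 on GRCm38). *Cd3g* runs from 44969572 to 44980431 on the minus strand and *Cd3d* from 44981786 to 44987339 on the plus strand, head to head with 1355 bases between their starts, and *Cd3e* follows from 44998740 to 45009627 on the minus strand. *Cd247*, which encodes the zeta chain, is on chromosome 1 from 165788681 to 165877277. *Cd4* is on chromosome 6 from 124864692 to 124888221, and *Cd8b1* (71322788 to 71337494) and *Cd8a* (71373427 to 71379173) are neighbors elsewhere on that chromosome, 35.9 kb apart. *Lck* is on chromosome 4 from 129548344 to 129573641, *Zap70* on chromosome 1 from 36761798 to 36782818, and *Lat* on chromosome 7 from 126363824 to 126369570.

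The sequences upstream of the 3 clustered CD3 genes are shown because *Cd3g* and *Cd3d* share 1 short intergenic stretch. The WT and knockout tumors were apart for *Cd3g* and overlapped for *Cd3d*, but a difference between these genes was not tested. Each is the 150 bases that end just before the outermost annotated start, read 5′ to 3′ on the strand of the gene from RefSeq on GRCm38.p6, with matches to the searched motifs in capitals. They cover chr9:44980432-44980581 on the minus strand for *Cd3g*, chr9:44981636-44981785 on the plus strand for *Cd3d* and chr9:45009628-45009777 on the minus strand for *Cd3e*.
Cd3g: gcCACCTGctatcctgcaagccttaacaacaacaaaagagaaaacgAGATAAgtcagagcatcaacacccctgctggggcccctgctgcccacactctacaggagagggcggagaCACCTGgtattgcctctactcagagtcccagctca
Cd3d: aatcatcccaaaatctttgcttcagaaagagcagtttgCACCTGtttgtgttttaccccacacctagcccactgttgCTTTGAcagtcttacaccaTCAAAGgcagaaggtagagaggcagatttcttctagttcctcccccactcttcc
Cd3e: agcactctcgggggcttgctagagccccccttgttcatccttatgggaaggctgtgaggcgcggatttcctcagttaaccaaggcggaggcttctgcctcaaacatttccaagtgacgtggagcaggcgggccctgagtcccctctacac

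In *Cd3g* the capitals mark the E-box CACCTG at 148 and 35 bases before the start and the GATA motif AGATAA at 104 bases. In *Cd3d* they mark CACCTG at 112 bases and the TCF/LEF motif CTTTGA at 73 bases and, as its reverse complement, at 54 bases. The stretch of *Cd3e* holds none of the letters searched. Promoter windows of 300 bases were at hand for 8 of the 10 genes, 11 windows in all, and were searched on both strands. CACCTG was in 8 of the 11 windows (*Cd3d*, *Cd3e*, *Cd3g*, *Cd247*, *Lck* and *Zap70*), against 20.2% of all 32851 mouse windows. The ETS core GGAAGT was in 6 (*Cd3d*, *Cd3e*, *Cd247*, *Lck* and *Zap70*; 23.8% of all), the RUNX motif TGTGGT in 3 (*Lck*, *Zap70* and *Lat*; 16.8% of all), CTTTGA in 3 (*Cd3d*, *Cd247* and *Zap70*; 16.0% of all), AGATAA in 1 (*Cd3g*; 11.2% of all) and the TATA box TATAAA in 0 (13.6% of all). None of these motifs overlaps another in the printed stretches, windows of 1 gene overlap each other, and a match is only a run of letters.

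To ask whether the T cell genes differed with the genotype of the host, WT and *Tgm2* knockout tumors were compared with limma on log2(normalized count + 1) over the 19667 genes that reached a value of 1 in 3 or more tumors. All 10 genes had a higher mean in knockout tumors, with log2 fold changes between 0.35 for *Lat* and 1.49 for *Cd4* and a median of 0.75, while the median of all tested genes was -0.03 and 47.3% of them had a higher mean in knockout tumors. None of the 10 passed an adjusted p of 0.05 with an absolute log2 fold change of 1, limits that 20 genes (0.102% of all tested) passed on the higher side. At an unadjusted p of 0.05 in limma, 2 of the 10 were higher (*Cd3g* and *Cd4*), against 3.4% of all tested genes, and 0 were lower, against 2.38%. In 5 of the 10 (*Cd3g*, *Cd247*, *Cd4*, *Lck* and *Zap70*) every knockout tumor lay above every WT tumor, as it did for 5.18% of all tested genes, and in 0 of the 10 did every knockout tumor lie below, against 5.33%. With quantile normalization of the log2 values, the groups were apart for only 1 of the 10, *Cd4*, against 5.15% of all tested genes. The separation of the other 4 genes thus depends on the scaling between tumors. The 10 genes share their cells and their tumors, so they are not 10 independent measurements of the genotype.

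The tumors of 1 genotype were far from alike, and the same tumors stood out for most of the genes. Knockout tumor 3 had the highest value of all 6 tumors for all 10 genes, and WT tumor 1 was the highest WT tumor for 8 of them, with *Lck* and *Zap70* the exceptions. Without WT tumor 1, the groups did not overlap for 9 of the 10 genes (12.0% of all genes tested then), and without knockout tumor 1 also for 9 (9.64%). The number at an unadjusted p of 0.05 was 4 without WT tumor 1 (4.46% of all genes tested then were higher at that p), 3 without knockout tumor 1 (3.24%), and 1 without WT tumor 2 (2.68%), WT tumor 3 (3.03%), knockout tumor 2 (2.77%) or knockout tumor 3 (3.77%).

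**Figure D1:**
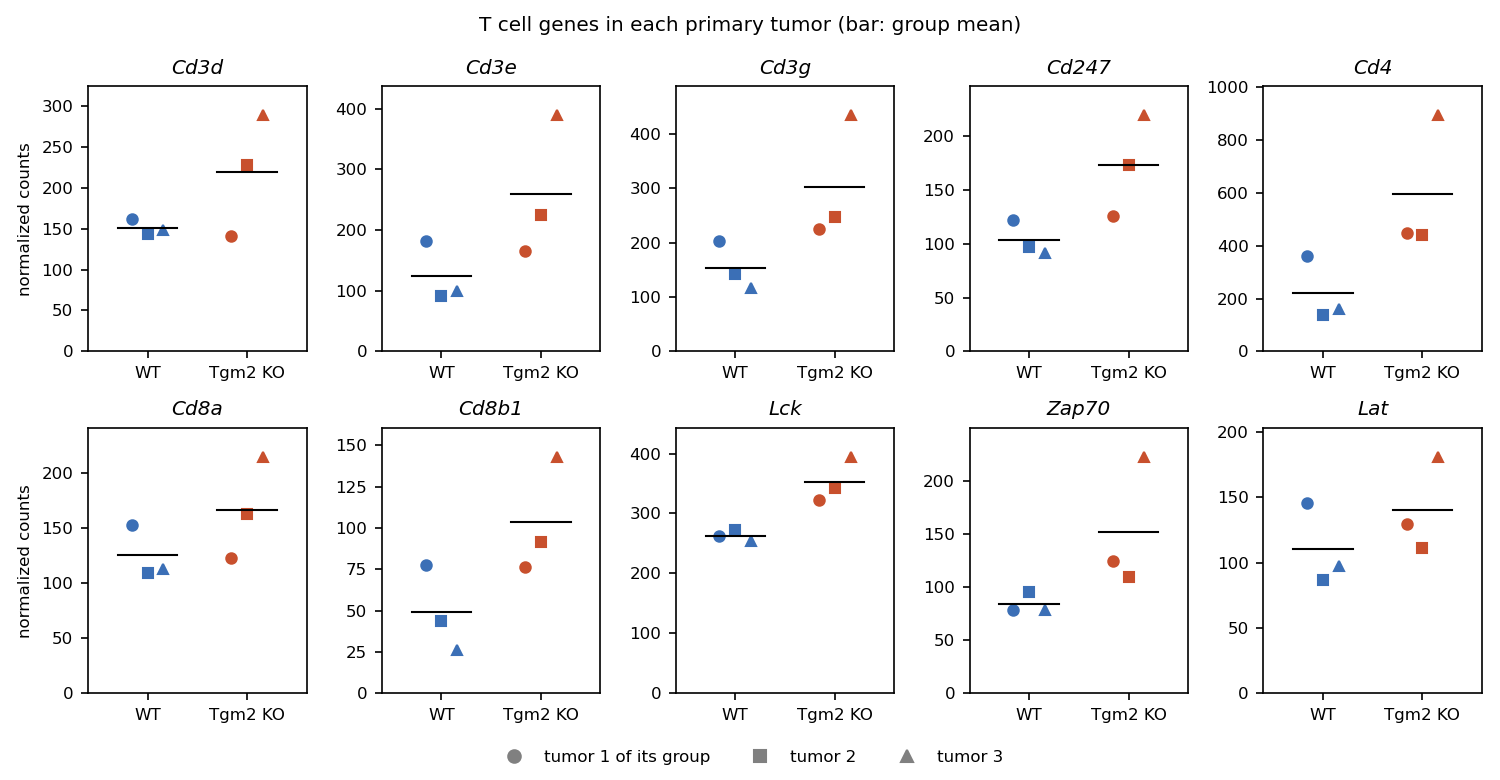
Normalized counts (y axis, linear from 0) of each of the 10 T cell genes in the 3 WT and 3 *Tgm2* knockout (KO) tumors, with 1 symbol for each tumor and a bar at the group mean. Knockout tumor 3 is the highest point in all 10 panels, and the groups are apart for *Cd3g*, *Cd247*, *Cd4*, *Lck* and *Zap70*.

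Among the CD3 chains, *Cd3g* and *Cd247* were separated between the groups, and *Cd3d* and *Cd3e* were not. *Cd3g*, the gamma chain, had 202, 141 and 116 normalized counts in WT tumors 1, 2 and 3 and 224, 246 and 433 in knockout tumors. The lowest knockout tumor was thus just above the highest WT tumor, and knockout tumor 3 was far above the others. The log2 fold change of *Cd3g* was 0.94 (95% interval 0.04 to 1.85), and limma gave an unadjusted p of 0.043 and 0.828 after adjustment.

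*Cd3e*, the epsilon chain, which pairs with both the gamma and the delta chain, had 182, 91.2 and 99.9 normalized counts in WT and 166, 224 and 389 in knockout tumors. WT tumor 1 lay between knockout tumors 1 and 2, so the groups overlapped although the fold change was larger than for *Cd3g*. The log2 fold change of *Cd3e* was 1.03 (95% interval -0.01 to 2.08; limma adjusted p = 0.874). *Cd3d*, the delta chain, had 161, 144 and 148 normalized counts in WT and 141, 228 and 288 in knockout tumors. Knockout tumor 1 was the lowest of all 6 tumors, the only one of the 10 genes for which a knockout tumor was lowest. The WT tumors agreed closely for *Cd3d* (151 ± 9.27, SD, n = 3) and the knockout tumors did not (219 ± 73.6, SD, n = 3), and the log2 fold change was 0.48 (95% interval -0.39 to 1.34; limma adjusted p = 0.898). *Cd247*, the zeta chain, which carries more of the signaling tyrosines than any other chain, had 122, 97.3 and 91.7 normalized counts in WT and 126, 174 and 219 in knockout tumors. The groups were apart, but only narrowly, since WT tumor 1 and knockout tumor 1 were almost level, and the log2 fold change was 0.71 (95% interval -0.20 to 1.61; limma adjusted p = 0.889).

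The constant regions belong to the TCR chains that the CD3 chains hold. All 7 constant genes had a higher mean in knockout tumors (median log2 fold change 0.73), the groups overlapped for every one, against 5.18% of all tested genes that were apart on the higher side, and 0 reached an unadjusted p of 0.05 in limma, against 3.4% of all on the higher side. *Trac*, the constant region of the alpha chain, had 461, 291 and 195 normalized counts in WT and 460.5, 377 and 689 in knockout tumors. Of the beta chain genes, *Trbc1* gave a log2 fold change of 1.01 (limma adjusted p = 0.874) and *Trbc2* one of 0.75 (adjusted p = 0.887). Both are near-identical copies, so reads may have been split between them.

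*Cd4* had the largest fold change of the 10 genes. CD4 binds class II antigen complexes and marks helper and regulatory T cells, and its gene had 361, 138 and 159.8 normalized counts in WT tumors 1, 2 and 3 and 449, 441 and 893 in knockout tumors. Every knockout tumor was above every WT tumor, WT tumor 1 was well above the other WT tumors, and knockout tumor 3 was well above the other knockout tumors. The log2 fold change was 1.49 (standard error 0.45), or 2.80-fold with a 95% interval of 1.37 to 5.75. Ranked by p over all tested genes, *Cd4* was number 298, and limma gave an unadjusted p of 0.010 and 0.682 after adjustment. It was the only one of the 10 genes to stay at an unadjusted p of 0.05 when any 1 tumor was left out, with log2 fold changes between 1.15 and 1.91. It was no longer at that p with a covariate in the model, although the log2 fold change of *Cd4* was 1.62 with the mean of the white adipocyte markers of each tumor and 0.90 with that of the general leukocyte genes.

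*Cd8a* and *Cd8b1* encode the 2 chains of CD8, the coreceptor for class I complexes. *Cd8a* had 153, 109.7 and 114 normalized counts in WT and 123, 163 and 214 in knockout tumors. WT tumor 1 lay above knockout tumor 1, and the log2 fold change was among the smallest of the 10 genes, at 0.39 (95% interval -0.51 to 1.28; limma adjusted p = 0.909). *Cd8b1*, whose chain is found on conventional CD8+ T cells and not on CD8+ dendritic cells, had 77.5, 43.7 and 26.4 normalized counts in WT and 76.7, 91.2 and 143 in knockout tumors. The groups overlapped by WT tumor 1 and knockout tumor 1, which were almost level, and the log2 fold change was 1.14 (95% interval -0.14 to 2.42; limma adjusted p = 0.887).

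Because the study separated CD4+ from CD8+ T cells by flow cytometry, the ratio of the coreceptor transcripts was compared within each tumor. *Cd4* was 2.36, 1.25 and 1.41 times *Cd8a* in WT tumors 1, 2 and 3 and 3.66, 2.71 and 4.17 times *Cd8a* in the knockout tumors. The groups did not overlap, and the mean log2 ratio was 0.68 ± 0.48 (SD, n = 3) in WT and 1.78 ± 0.32 (SD, n = 3) in knockout tumors, a difference of 1.10 (p = 0.1 in a two-sided exact permutation test, which cannot go lower with 3 tumors in each group). The direction held with each tumor left out in turn (0.92 to 1.38). Against *Cd8b1* in place of *Cd8a*, a ratio chosen like those that follow after the values were seen, the difference of *Cd4* was only 0.35 and the groups overlapped. The chains of CD8 themselves were not in step, since the log2 ratio of *Cd8b1* to *Cd8a* was -0.97, -1.31 and -2.06 in WT and -0.67, -0.83 and -0.59 in knockout tumors. These groups did not overlap either, and the mean difference was 0.75. Relative to *Cd3g* and to *Trac*, *Cd4* was higher in every knockout tumor than in any WT tumor (differences of 0.54 and 0.76 in log2), although for *Cd3g* the nearest tumors, WT tumor 1 at 0.83 and knockout tumor 2 at 0.84, were almost level. Relative to *Cd3e* (0.45) and to *Ptprc*, the CD45 gene of all leukocytes (1.03), the groups of *Cd4* overlapped. *Cd8a* relative to *Cd3e* was lower in every knockout tumor than in any WT tumor, by 0.65 in log2 on average.

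**Figure D2:**
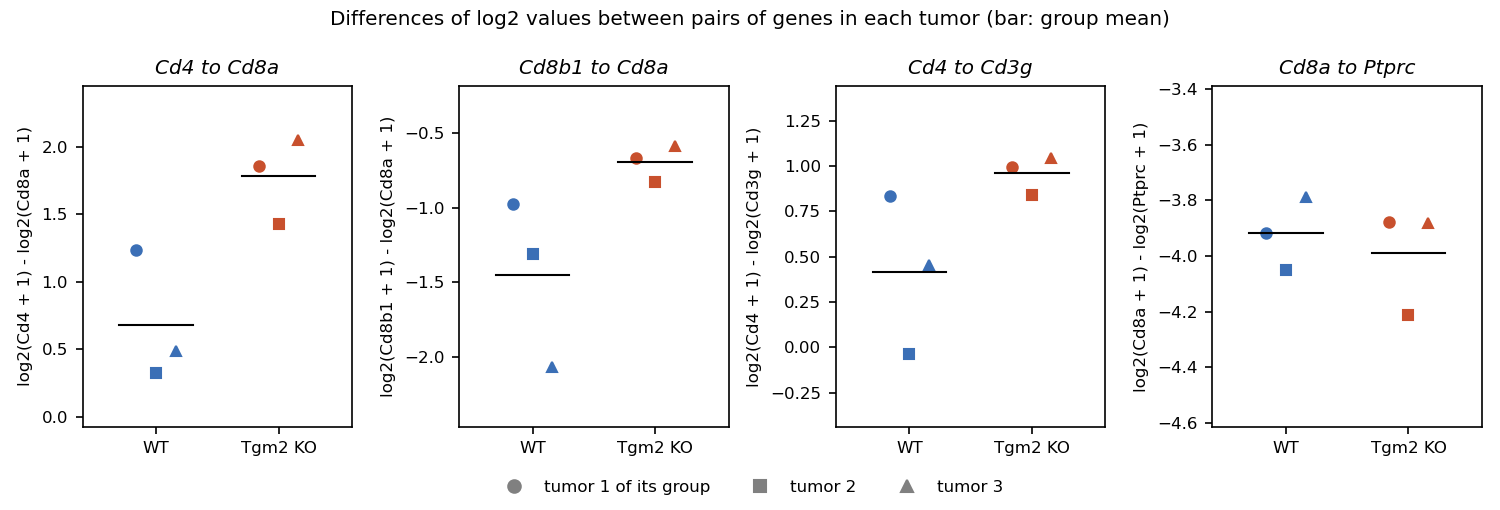
Log2 differences between pairs of genes in each tumor (y axis, log2 units, not starting at 0), with 1 symbol for each of the 3 WT and 3 *Tgm2* knockout (KO) tumors and a bar at the group mean. *Cd4* to *Cd8a*, *Cd8b1* to *Cd8a* and *Cd4* to *Cd3g* are apart between the groups, and *Cd8a* to *Ptprc*, the CD45 gene, is not.

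Of the proximal signaling genes, *Lck* and *Zap70* were apart between the groups and *Lat* was not. *Lck*, the kinase that starts the cascade, had 262, 273 and 254 normalized counts in WT and 323, 343 and 393 in knockout tumors. It was the steadiest of the 10 genes within the groups (263 ± 9.35 in WT and 353 ± 36.3 in knockout tumors, SD, n = 3), and its log2 fold change was 0.42 (95% interval -0.19 to 1.03; limma adjusted p = 0.891). *Zap70*, the kinase that docks on the CD3 chains, had 78.0, 94.9 and 78.3 normalized counts in WT and 124, 109.6 and 222 in knockout tumors. Knockout tumor 3 was far above the others, and the log2 fold change was 0.79 (95% interval -0.21 to 1.78; limma adjusted p = 0.889). *Lat* had 146, 87.2 and 97.7 normalized counts in WT and 129.6, 111 and 181 in knockout tumors. WT tumor 1 was above knockout tumors 1 and 2, and the log2 fold change was the smallest of the 10 genes, at 0.35 (95% interval -0.60 to 1.31; limma adjusted p = 0.919). Relative to *Cd3e*, a comparison also chosen after the values were seen, *Lat* was lower in every knockout tumor than in any WT tumor. It was lower by 0.68 in log2 on average, but WT tumor 1 at -0.32 and knockout tumor 1 at -0.36 were almost level. For *Zap70* relative to *Lck* (0.37) the groups overlapped.

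**Figure D3:**
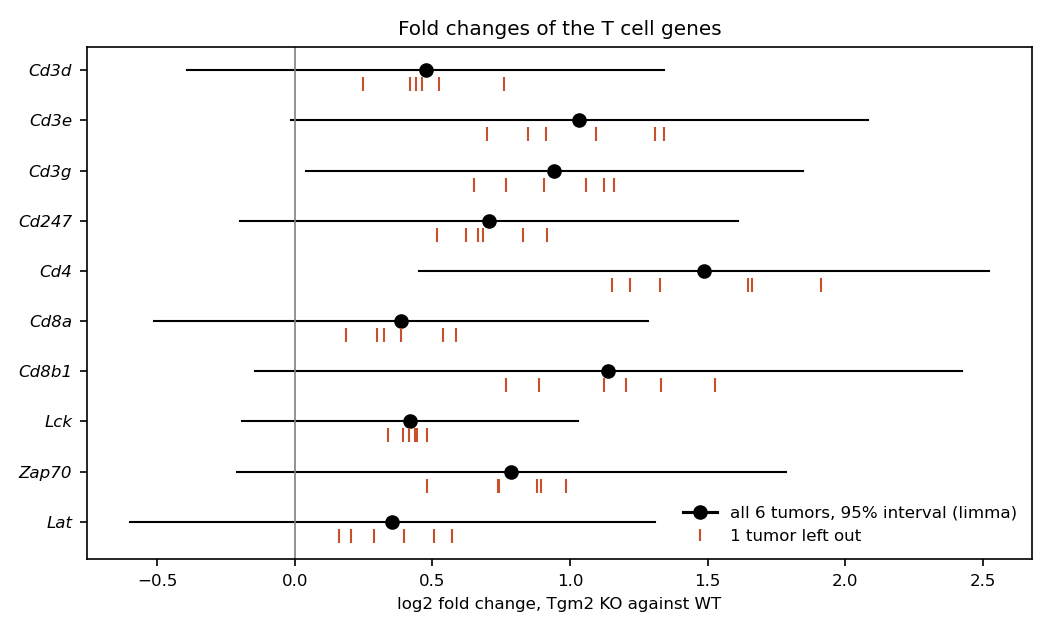
Log2 fold changes of the 10 T cell genes (x axis, *Tgm2* knockout against WT; dots with lines, all 6 tumors with the 95% interval from limma; short red bars, each tumor left out in turn). All dots and bars lie above 0, and the interval excludes 0 for *Cd3g* and *Cd4*, while 8 intervals include it.

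Levels can be compared between genes only per length, and were divided by the length of the longest coding transcript. In WT tumors the order of the mean levels, in normalized counts per kb, was *Cd3g* (150), *Lck* (120), *Cd3d* (93.4), *Lat* (89.2), *Cd3e* (85.2), *Cd4* (70.6), *Cd8a* (40.1), *Zap70* (37.3), *Cd247* (35.1) and *Cd8b1* (33.2). Of the 9 pairs of neighbors in that order, only *Lck* and *Cd3d* differed by more than the larger of their SDs. In knockout tumors the order was *Cd3g* (294), *Cd4* (191), *Cd3e* (178), *Lck* (162), *Cd3d* (135), *Lat* (114), *Cd8b1* (69.8), *Zap70* (67.7), *Cd247* (58.5) and *Cd8a* (53.3), and only *Lat* and *Cd8b1* differed by more than the larger SD. *Cd4* thus stood at number 6 in WT and at number 2 in knockout tumors, and *Cd8a* at number 7 and number 10. Both lay within the larger SD of their neighbors in each group. Which of the annotated transcripts were expressed was not examined.

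The other genes of the TCR pathway were described by 3 lists, and no difference between these lists and the 10 genes was tested. Among 20 other proximal kinases, adaptors and effectors, 0 reached an unadjusted p of 0.05 in limma in either direction, 16 had a higher mean in knockout tumors and the median log2 fold change was 0.28. Only *Skap1*, an adaptor that links the receptor to integrins, was apart between the groups, with 85.1, 68.4 and 57.4 normalized counts in WT and 95.1, 88.6 and 171 in knockout tumors. The most abundant genes of this list, *Cd2ap* (log2 fold change 0.08), *Grb2* (0.03) and *Nck2* (-0.20), are used by most cell types. *Sh2d2a*, a T cell adaptor that binds Lck, gave a log2 fold change of 1.12 (limma adjusted p = 0.887), and *Was*, the actin regulator of blood cells, one of 0.54 (adjusted p = 0.891).

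Among 20 negative regulators of TCR signaling, 10 had a higher and 10 a lower mean in knockout tumors, and the median log2 fold change was -0.03 while the mean over the list was 0.22. *Lax1*, an adaptor of T and B cells that restrains antigen receptor signaling, was the only one at an unadjusted p of 0.05. It had 97.0, 62.1 and 117 normalized counts in WT and 493, 339 and 562 in knockout tumors, with wide separation in every tumor. The log2 fold change of *Lax1* was 2.34 (standard error 0.38), larger than that of any of the 10 genes, and limma gave an adjusted p of 0.162. *Ptpn22*, a phosphatase that acts on Lck and Zap70, gave a log2 fold change of 1.15 (adjusted p = 0.881), and *Cd5*, an inhibitory receptor, one of 0.99 (adjusted p = 0.891), and both overlapped between the groups. The most abundant genes of the list were *Rnf128* (log2 fold change -0.51), *Dgkz* (-0.21) and *Csk*, the kinase that holds Lck inactive (0.03).

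Downstream of Lat, 18 genes of the calcium, NF-kB and AP-1 branches had a median log2 fold change of 0.15, with 11 of 18 higher in the mean. *Fos*, an immediate early gene of many cell types, was the only one at an unadjusted p of 0.05 in limma and was lower in knockout tumors, with 699, 622 and 905 normalized counts in WT and 475, 478 and 495 in knockout tumors (log2 fold change -0.60, adjusted p = 0.819). *Malt1*, a protease of the NF-kB branch, was also apart, at 677, 672 and 851 in WT and 553, 485 and 640.3 in knockout tumors (log2 fold change -0.39). *Itpr1*, a calcium channel, gave a log2 fold change of 0.51, and the abundant *Ppp3r1* (0.17), *Stim1* (-0.06) and *Jun* (-0.05) were close to level. Over these 3 lists together, 1 of 58 genes was higher and 1 lower at an unadjusted p of 0.05 (3.4% and 2.38% of all tested genes), 3 were apart on the higher side and 2 on the lower (5.18% and 5.33% of all), and 0 passed the limits. These shares are at or below those of all tested genes.

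Other receptors accompany the TCR on the T cell surface. Of 25 accessory and costimulatory receptors, 23 had a higher mean in knockout tumors (median log2 fold change 0.81), 6 were higher (3.4% of all tested genes) and 0 lower (2.38%) at an unadjusted p of 0.05 in limma, and in 8 every knockout tumor was above every WT tumor (5.18% of all), but 0 passed the limits. *Cxcr3*, the chemokine receptor of effector T cells and NK cells, had 129.5, 81.2 and 60.8 normalized counts in WT and 243, 236 and 462 in knockout tumors (log2 fold change 1.78, adjusted p = 0.566). *Cd28*, the costimulatory receptor, had 80.1, 24.9 and 62.2 in WT and 156, 116 and 225 in knockout tumors (log2 fold change 1.65, adjusted p = 0.751). *Il2rb*, a chain of the IL-2 receptor, had 599.6, 272 and 258 in WT and 656, 633 and 1233 in knockout tumors (log2 fold change 1.20, adjusted p = 0.751). The groups were apart for all 3, and as for *Cd4*, WT tumor 1 was the highest WT tumor and knockout tumor 3 the highest of all. The abundant *Il2rg*, which many leukocytes make, and *S1pr1*, which vessels also make, had log2 fold changes of -0.12 and 0.01.

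Of 18 transcription factors of the T lineage, 17 had a higher mean in knockout tumors, against 47.3% of all tested genes, with a median log2 fold change of 0.33, and 1 reached an unadjusted p of 0.05, against 3.4% of all. *Tbx21*, which drives the Th1 and effector programs, had 39.7, 10.4 and 10.1 normalized counts in WT and 58.8, 40.2 and 98.0 in knockout tumors, a separation of a fraction of 1 normalized count between WT tumor 1 and knockout tumor 2 (log2 fold change 1.85, limma adjusted p = 0.819). *Foxp3*, the factor of regulatory T cells, had 70.7, 29.0 and 68.4 in WT and 86.3, 97.5 and 184 in knockout tumors, also apart (log2 fold change 1.14, adjusted p = 0.887). *Bcl11b*, which fixes T cell identity, gave 1.03 on the same scale, and its groups overlapped. The most abundant factors of the list, *Id3* (0.27), *Tcf12* (0.35) and *Runx1* (0.41), are widely expressed. Of 9 genes of developing thymocytes that were measured, 1 had a higher mean and the median log2 fold change was -0.18. At an unadjusted p of 0.05 in limma, 1 was higher (*Cd1d1*) and 1 lower, against 3.4% and 2.38% of all tested genes. The lower one, *Psmb11*, a proteasome subunit of thymic epithelium named after its values were seen, had 4.65, 19.7 and 19.6 normalized counts in WT and 5.24, 0.603 and 1.32 in knockout tumors (log2 fold change -2.23, limma adjusted p = 0.819). It thus rested on few reads, and its groups overlapped. The defining genes of thymocytes were close to 0: *Rag2* was at 0 in WT tumor 2 and knockout tumor 2, and *Ptcra* at 0 in knockout tumors 1 and 3. *Cd1d1* (log2 fold change 1.05), the most abundant gene of that list and the 1 that was higher, is made by many cell types, *Aqp11* gave a log2 fold change of -0.31, and *Ccr9*, which the dendritic cell list also holds, one of -0.10.

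Leukocyte transcripts in general were also highest in knockout tumor 3 and lowest in WT tumor 3. The 16 general leukocyte genes summed to 43460, 30880 and 23846 normalized counts in WT tumors 1, 2 and 3 and to 30201, 53095 and 59821 in knockout tumors, with a median log2 fold change of 0.59 and 14 of 16 higher in the mean. At an unadjusted p of 0.05 in limma, 2 of these 16 were higher, against 3.4% of all tested genes, and 0 lower, against 2.38%. Their most abundant gene, *Laptm5*, gave a log2 fold change of 0.54, *Lcp1* one of 0.51, and *Cd52*, a lymphocyte and myeloid surface protein, one of 1.22 (adjusted p = 0.566). After the mean of these 16 genes was subtracted from each T cell gene within each tumor, 6 of the 10 remained higher in the knockout mean and 4 were lower, with a median difference of 0.16 in log2. That median was -0.03 without WT tumor 1, 0.03 without knockout tumor 1, 0.31 without WT tumor 3, 0.35 without knockout tumor 2 and about 0 with quantile normalization. Its direction turned only without WT tumor 1, while its size depended on single tumors and on the scaling. None of the 10 was then apart between the groups, against 1.23% of all tested genes.

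Relative to leukocytes, *Cd4* kept the largest difference, at 0.90 in log2, and its groups overlapped only narrowly, since the lowest knockout tumor stood at -2.44 and the highest WT tumor at -2.42. *Cd8b1* followed with 0.56, *Cd3e* with 0.45, *Cd3g* with 0.36, *Zap70* with 0.20 and *Cd247* with 0.12. *Cd3d* (-0.11), *Lck* (-0.16), *Cd8a* (-0.20) and *Lat* (-0.23) were lower relative to leukocytes in the knockout mean. In knockout tumor 1 the leukocyte sum was below that of WT tumor 1, while the sum of the 10 T cell genes was above it. Not every part of the T cell genes followed that sum. The CD3 chains summed to 668 in WT tumor 1 and 658 in knockout tumor 1, and the TCR constant genes to 1003 and 905. The coreceptors summed to 592 and 648, and *Lck*, *Zap70* and *Lat* together to 486 and 577.

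**Figure D4:**
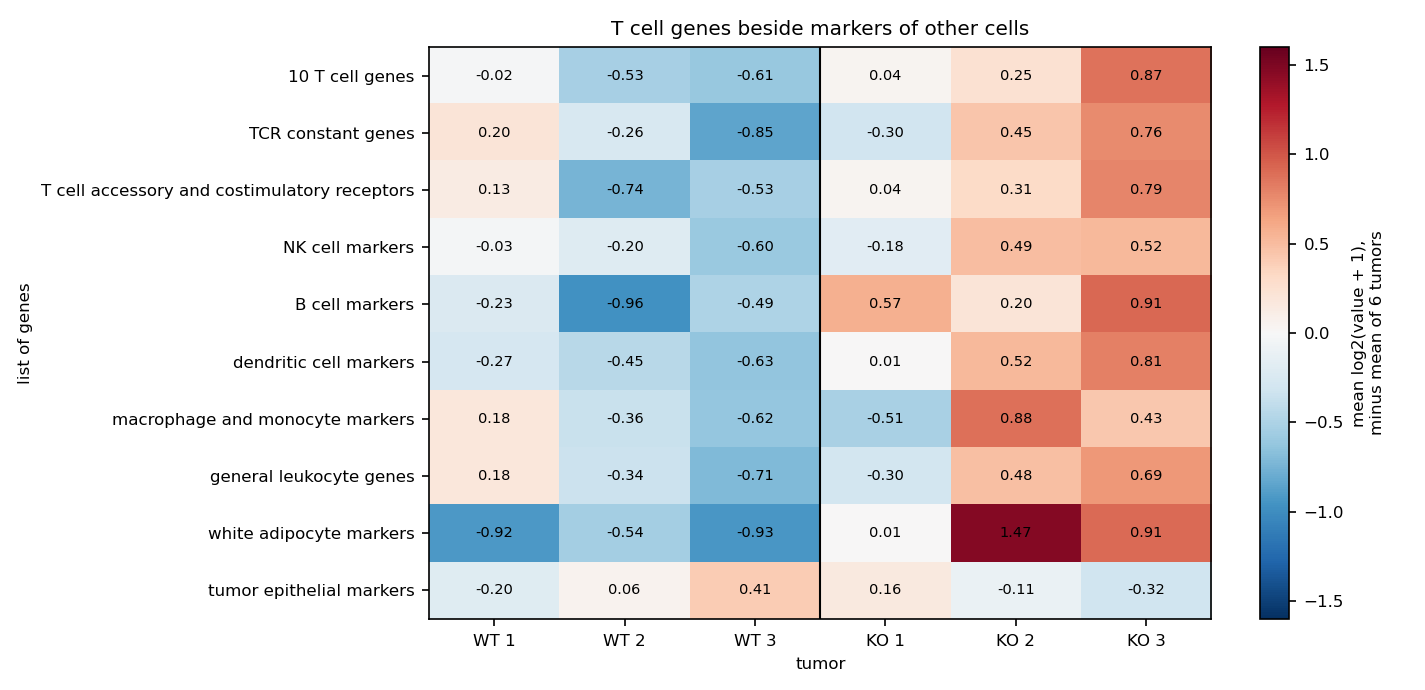
Mean log2(normalized count + 1) of lists of genes (rows) in each of the 6 tumors (columns; WT on the left of the line, *Tgm2* knockout, KO, on the right), minus the mean of the 6 tumors, with color and printed number in log2 units. The T cell genes rank knockout tumor 3 highest and WT tumor 3 lowest, as do the TCR constant, NK cell, dendritic cell and general leukocyte genes. The white adipocyte markers are below 0 in all 3 WT tumors, as are the 10 T cell genes and the NK cell, B cell and dendritic cell markers.

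Some markers of other cells that share some of the 10 genes also had higher means in knockout tumors, although 0 of the NK cell, dendritic cell, macrophage and mast cell markers passed the limits, and their part in the values of the T cell genes was not tested. The 18 NK cell markers summed to 7179, 6177 and 4236 normalized counts in WT and 3982, 9863 and 7845 in knockout tumors, a sum led by *Fcer1g* (log2 fold change 0.29) and *Tyrobp* (0.08), which myeloid cells also make. Of these 18, 14 had a higher mean in knockout tumors, 2 were higher at an unadjusted p of 0.05 (3.4% of all tested genes), 6 were apart on the higher side (5.18% of all) and the median log2 fold change was 0.67, while *Cd244a* had one of -0.23. *Ncr1*, the receptor that defines NK cells, was low in every tumor, with 18.0, 9.36 and 10.1 in WT and 19.9, 37.3 and 30.2 in knockout tumors (named after its values were seen, as are *Xcr1* and *Clec9a*).

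The 14 dendritic cell markers summed to 15682, 15068 and 9679 in WT and 11996, 20273 and 19090 in knockout tumors, mostly through *Bst2* (log2 fold change 0.03), which other cells also make. Of these 14, 12 had a higher mean, 6 were higher at an unadjusted p of 0.05 and 6 were apart (3.4% and 5.18% of all tested genes), and the median log2 fold change was 0.79, with *Itgax* at 0.53 and *Irf8* at 0.69. The dendritic cells that can carry CD8 alpha chains are marked by *Xcr1* and *Clec9a*. *Xcr1* had 68.2, 60.5 and 27.3 normalized counts in WT and 95.8, 166 and 341 in knockout tumors. *Clec9a* had 51.1, 86.8 and 73.5 in WT and 302, 244 and 399 in knockout tumors, and the groups were apart for both. The 16 macrophage and monocyte markers summed to 96061, 72335 and 49918 in WT and 47938, 148328 and 105430 in knockout tumors, with a median log2 fold change of 0.45, 13 of 16 higher in the mean and 3 higher at an unadjusted p of 0.05 (3.4% of all tested genes), and their abundant *Lyz2* (0.22), *C1qa* (0.48) and *C1qb* (0.39) overlapped between the groups. The 10 mast cell and platelet markers had a median log2 fold change of 0.65, with 3 higher and 1 lower at an unadjusted p of 0.05 (3.4% and 2.38% of all tested genes), and sums of 5743, 5588 and 4763 in WT and 6048, 10073 and 5972 in knockout tumors. Of their abundant genes, *Hdc* gave a log2 fold change of 0.81, *Kit* one of -0.29 and *Tpsb2* one of 1.01.

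Of all the genes on these lists, only *Cd79a* and *Lep* passed the limits, and neither did with quantile normalization, no variance trend, either covariate, or any 1 of the 6 tumors left out (highest adjusted p 0.552 for *Cd79a* and 0.652 for *Lep*, both with the adipocyte covariate). Their log2 fold changes stayed between 2.72 and 3.17 for *Cd79a* and between 2.95 and 3.96 for *Lep*. Of 14 B cell markers, 12 had a higher mean, 6 were higher at an unadjusted p of 0.05 and 7 were apart (3.4% and 5.18% of all tested genes), and the median log2 fold change was 0.76. *Cd79a*, a chain of the B cell receptor complex and the counterpart of the CD3 chains in B cells, was past the limits, with 114, 91.6 and 74.1 normalized counts in WT and 686, 593 and 1022 in knockout tumors (log2 fold change 3.01, limma adjusted p = 0.0264). *Cd79b*, its partner, gave a log2 fold change of 1.20 (adjusted p = 0.649), and *Spib*, the most abundant gene of the list, one of -0.67. The B cell markers summed to 2169, 1286 and 1582 in WT and 2630, 2358 and 3623 in knockout tumors.

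Of 19 white adipocyte markers, all 19 had a higher mean in knockout tumors, 16 were higher at an unadjusted p of 0.05 and 12 were apart (3.4% and 5.18% of all tested genes), and the median log2 fold change was 1.42. Their sums were 59253, 71615 and 47891 normalized counts in WT and 66113, 228611 and 141557 in knockout tumors. *Lep*, the adipocyte hormone leptin, passed the limits (log2 fold change 3.74, limma adjusted p = 0.0393), while *Lpl* (0.48), *Cfd* (1.65) and *Scd1* (1.43) did not. The mean log2 values of the adipocyte markers and of the 10 T cell genes were both lower in every WT tumor than in any knockout tumor, lowest in WT tumor 3, and lowest among the knockout tumors in tumor 1, while the highest was knockout tumor 2 for the adipocyte markers and knockout tumor 3 for the T cell genes. With the adipocyte markers as a covariate, 0 of the 10 T cell genes were at an unadjusted p of 0.05 in limma. The mean of these markers was itself apart between the genotypes, so the model can separate it from the genotype only in part. Of all tested genes, 3.56% were higher and 3.77% lower at that p in the same model. The median log2 fold change of the 10 was then 0.64, against 0.75 without the covariate. It stayed above 0 for 8 of the 10, while *Cd3d* and *Cd8a* were at -0.26 and -0.017. The 10 tumor epithelial markers had a median log2 fold change of -0.32, with 4 of 10 higher in the mean. At an unadjusted p of 0.05 in limma, 0 were higher (3.4% of all tested genes) and 0 lower (2.38%). *Krt8* (-0.43) and *Krt19* (-0.40) were lower in every knockout tumor than in any WT tumor, as were 5.33% of all tested genes, and *Wt1* (0.11) overlapped. Their sums were 72788, 84175 and 77883 normalized counts in WT and 65150, 61022 and 71013 in knockout tumors.

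The genes whose profile over the 6 tumors was most like the mean profile of the 10 were found by the root mean square difference of centered log2 values, among 14082 other genes with a mean of at least 50 normalized counts. The closest were *Map4k1* (0.065), *Ctse* (0.084), *Adamtsl4* (0.086), *Ikzf1* (0.106) and *Gvin2* (0.111), against a median of 0.580 over all genes compared. *Map4k1* had 499.9, 315 and 289.8 normalized counts in WT and 461, 548 and 871 in knockout tumors. The 10 genes themselves lay between 0.114 (*Cd247*) and 0.455 (*Cd4*) from their own mean profile, so *Cd247* was the most typical of them and *Cd4* the least.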

How the data were processed

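RNA was prepared with poly(A) enrichment from 3 WT and 3 *Tgm2* knockout primary tumors and sequenced as paired reads of 100 nucleotides. The authors estimated transcript abundance with kallisto (version 0.46.2 on GRCm38 per the submitters' processing notes), summed it to genes, removed low genes and divided by DESeq2 size factors. The deposited signal is therefore on the scale of normalized counts, although the table is labelled TPM, since its columns total 32316613 to 37717165. The planned tests on log2 values were kept. Low values were whole reads (within 0.1 read) for 96.6% to 99.2% of genes with 1 transcript but for 42.0% to 48.9% of the others, so no count model was fitted. The genes that reached 1 in 3 or more tumors were tested with limma 3.58.1 in R 4.3.3 on log2(value + 1), a scale that understates the change of low genes, with a variance trend, no covariate, two-sided tests and Benjamini-Hochberg adjustment over all 19667 genes. The models were tested on simulated data. Nothing in the labels says how the tumors were processed together. The limma p-values set each difference of group means against the spread between tumors of the same group, drawn towards the variance trend over all tested genes. No pair of libraries shared values (Spearman rho 0.931 to 0.974).

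The 10 genes, the 15 lists of other genes and the alternatives were chosen with earlier results of these data known. Beside the 10 genes and *Tgm2*, the text names from each list the 3 most abundant genes, any past the limits and, for T cell lists, the 3 with the smallest p, and the 5 genes of most similar profile. Other genes were named after their values were seen. Positions and lengths come from GENCODE M21, promoter windows from RefSeq on GRCm38.p6, matched by symbol (94.8% of all genes matched 1 GENCODE gene). The alternatives changed the pseudocount, filter, scaling, tumor weights and variance trend, added a replicate block or a covariate, dropped the fold change limit or left out each tumor in turn.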

Additional observations from a re-analysis of the deposited data

How the results depend on the processing

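None of the 10 T cell genes passed the limits under any of the alternatives, and the lowest adjusted p of any of them lay between 0.430, without WT tumor 1, and nearly 1, without knockout tumor 3. Their fold changes stayed above 0 in 168 of 170 alternative values; with the white adipocyte covariate, *Cd3d* was at -0.26 and *Cd8a* at -0.017, and the cause was not tested. The median of 0.75 ranged from 0.38, with the general leukocyte covariate, to 0.77, and from 0.50 to 0.91 when 1 tumor was left out. The count of 2 genes at an unadjusted p of 0.05 is given here with the percentage of all tested genes that were higher at that p. It became 3 with a pseudocount of 0.1 (3.37%) and without the variance trend (3.41%). It became 1 with a pseudocount of 10 (3.31%), with quantile normalization (3.52%) and with the replicate block (3.56%). It became 0 with the adipocyte (3.56%) or leukocyte (3.75%) covariate, and 1 to 4 when 1 tumor was left out (2.68% to 4.46%). With the adipocyte covariate the log2 fold changes were 1.62 for *Cd4* and 0.72 for *Cd3g*, and with the leukocyte covariate 0.90 and 0.47. The count of 5 genes without overlap (5.18% of all tested genes on the higher side) became 1 with quantile normalization (*Cd4*; 5.15%). With 1 tumor left out the count was 5 to 9, and 8.999% to 12.0% of all genes tested then were apart on that side. The median difference relative to leukocytes (0.16) ranged from -0.03 without WT tumor 1 to 0.35 without knockout tumor 2, and was about 0 with quantile normalization. Over all genes, the 20 past the limits became 5 with the replicate block, 4 without the variance trend, 0 with the adipocyte and 11 with the leukocyte covariate, and 2 to 14 when 1 tumor was left out. *Cd79a* and *Lep*, recomputed after the data were seen, passed the limits in 6 and 5 of 17 alternatives, and with the replicate block their adjusted p was 0.341 and 0.470 (limma). Replicate numbers are shared between the groups, but same-numbered tumors did not deviate together (r across genes -0.20, 0.28 and -0.31), so the block has no basis in the design; with it, the ratio of *Cd4* to *Cd8a* kept its difference of 1.10 (exact p = 0.25, the smallest that 3 pairs allow). With 3 tumors in each group the intervals are wide, and depth limits genes of a few normalized counts such as *Rag2*.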
